A study of Mus musculus with 4 samples.

Results

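The 34 genes described here encode lysosomal proteins: 10 proteases (the cathepsins Ctsb, Ctsc, Ctsh, Ctsk, Ctsl, Ctsz, Ctsa and Ctsd, with Lgmn and Tpp1), 7 glycosidases (Hexa, Gaa, Galc, Gusb, Glb1, Neu1, Man2b1), 6 proteins of lipid handling (Asah1, Lipa, Npc1, Npc2, Psap, Grn), 6 proteins of the lysosomal membrane (Lamp1, Lamp2, Cd63, Cd68, Laptm5, Scarb2), 4 parts of the proton pump and a calcium channel (Atp6v0c, Atp6v0d2, Atp6v1a, Mcoln1), and the transcription factor Tfeb. They were taken by symbol from a fixed list and were all found, among 30406 genes with an identifier in all 4 feature lists. They lie on 17 chromosomes. The samples were 4 single-cell RNA libraries of live CD45.2+ immune cells from mouse brains bearing tumours of GL261, a mouse glioma line injected into the brain. There was 1 library in each of 4 groups. Untreated wild-type mice (WT) and untreated IFNaR-/- mice (here KO, lacking the receptor for type I interferon) were sorted on day 20. The other two groups, 1 of each genotype, received anti-PD1, an antibody against the T cell checkpoint receptor PD-1, and were sorted on day 25. Anti-PD1 was given at 200 ug per mouse on days 7, 11, 15 and 19. All mice carried the tumour. Cell suspensions were pooled before sorting from an unstated number of mice, and for the anti-PD1 groups sorted CD3+ and CD3- cells were combined in equal parts. With 1 library per group, the contrasts of genotype and of treatment have no replicate check, and their intervals cover counting error only.

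Lysosomes are acidic compartments in which hydrolases break down proteins, sugars and lipids that a cell has taken up or is recycling. The vacuolar ATPase pumps in protons, most cathepsins need the low pH to work, and membrane proteins such as LAMP1 shield the limiting membrane. TFEB and its relatives bind E-box sequences of the CLEAR type, with the core CACGTG, upstream of many lysosomal genes. Microglia and macrophages are professional phagocytes rich in lysosomes, and inherited loss of several of these genes (Hexa, Galc, Npc1, Npc2, Ctsd, Tpp1, Grn) causes storage disease of the brain.

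The promoter sequences show what part of the list has in common at the DNA level. RefSeq windows on GRCm38.p6, from 250 bases before to 50 after a gene's start, were found for 29 of the 34 genes; Ctsb, Ctsh, Asah1, Npc1 and Atp6v0d2 had no entry. The core CACGTG, which reads the same on both strands, stood in a window of 9 of the 29 (31.0%: Ctsl, Lgmn, Ctsa, Ctsd, Gaa, Glb1, Lamp1, Atp6v1a and Mcoln1), against 8.09% of 27025 genes with such a window. The longer TCACGTGA, which contains the core, stood in 4 of the 29 (13.8%: Ctsa, Ctsd, Atp6v1a and Mcoln1) against 1.12% of all genes. The 250 bases before the start are printed for Ctsd, Lamp1, Glb1 and Atp6v1a, which hold 2, 4, 1 and 1 copies and whose transcripts are described below, and for Psap, whose 2 windows hold none. Capitals mark CACGTG. The printed windows are chr7:142387828-142388077 (minus strand), chr8:13158911-13159160 (plus), chr9:114400828-114401077 (plus), chr16:44139260-44139509 (minus) and chr10:60277378-60277627 (plus), each written 5′ to 3′ on the strand of its gene.
Ctsd: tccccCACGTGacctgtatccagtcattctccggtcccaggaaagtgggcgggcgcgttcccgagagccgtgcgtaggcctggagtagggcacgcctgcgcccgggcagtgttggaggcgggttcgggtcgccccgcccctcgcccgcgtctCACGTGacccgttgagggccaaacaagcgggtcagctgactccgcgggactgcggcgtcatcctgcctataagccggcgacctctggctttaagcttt
Lamp1: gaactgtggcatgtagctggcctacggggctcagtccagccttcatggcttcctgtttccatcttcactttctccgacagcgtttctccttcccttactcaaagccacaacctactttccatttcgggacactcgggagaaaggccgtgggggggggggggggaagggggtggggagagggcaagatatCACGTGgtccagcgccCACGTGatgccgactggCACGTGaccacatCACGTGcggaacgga
Glb1: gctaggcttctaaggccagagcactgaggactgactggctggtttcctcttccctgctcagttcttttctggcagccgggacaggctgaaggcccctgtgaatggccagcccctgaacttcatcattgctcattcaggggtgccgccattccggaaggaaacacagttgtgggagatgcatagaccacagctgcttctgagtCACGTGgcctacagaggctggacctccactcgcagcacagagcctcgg
Atp6v1a: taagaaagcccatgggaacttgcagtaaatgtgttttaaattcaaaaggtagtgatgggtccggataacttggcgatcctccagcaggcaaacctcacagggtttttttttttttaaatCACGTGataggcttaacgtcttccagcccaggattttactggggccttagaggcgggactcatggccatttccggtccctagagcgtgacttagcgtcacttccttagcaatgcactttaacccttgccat
Psap: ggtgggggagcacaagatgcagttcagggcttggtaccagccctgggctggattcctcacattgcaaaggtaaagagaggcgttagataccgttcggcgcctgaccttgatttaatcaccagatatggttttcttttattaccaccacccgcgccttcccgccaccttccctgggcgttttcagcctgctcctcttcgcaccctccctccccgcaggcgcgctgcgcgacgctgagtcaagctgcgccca
A match is a description of letters in a window and says nothing of binding.

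The libraries held 3705 to 9530 barcodes and 32410040 to 94732545 UMIs (unique molecular identifiers, each counting 1 captured transcript), and 2726 to 8742 cells per library were kept, with a median of 4940 to 9481.5 UMIs. Cells were sorted into lineages by summed UMIs of marker genes, none of them among the 34, and 16.8% to 22.8% of the kept cells of a library stayed unassigned. In all lists of 4 values from here on, the order is untreated WT, untreated KO, anti-PD1 WT, anti-PD1 KO. The microglia gate held 357, 225, 781 and 1310 cells, and the monocyte/macrophage gate 1775, 1017, 5847 and 4119. The T cell gate held 1296, 597, 482 and 608 of the 4982, 2726, 8742 and 7881 kept cells. In the anti-PD1 libraries that is far under an equal part, although CD3+ and CD3- cells had been combined in equal parts. The 6 microglia markers together reached 1470 to 2475 CPM (counts of a gene scaled to a gate total of 1e6 UMIs) in the microglia gate. In the monocyte/macrophage gate they reached 41.5 to 54.7 CPM, with all 6 detected in both. The 8 monocyte/macrophage markers together reached 9217, 8931, 14983 and 13634 CPM in their own gate. In the microglia gate they reached 767, 1062, 2430 and 2511 CPM, mostly from Lyz2 (697, 933, 2356 and 2403 CPM). In the anti-PD1 WT and KO libraries that was above the microglia markers of the same gate (1470 and 1600 CPM). The anti-PD1 pair differed in kind: the T cell gate held 3.24 UMIs of T cell receptor beta variable segments per UMI of the constant genes in anti-PD1 WT, against 0.0737 in anti-PD1 KO and 0.00973 and 0.0103 in untreated WT and KO, while the labels name the same 5′ kit for all. Those 2 libraries shared 95 cell barcodes (1.08% of the smaller), and other pairs shared 0 to 3. The part of this difference in the values below was not tested, so most values of the anti-PD1 pair are set beside the untreated pair. Some ratios, those of single genes in T cells among them, are given for the anti-PD1 pair alone. Ifnar1 was read in every library, at 129, 138, 81.1 and 143 CPM in the monocyte/macrophage gates, and the labels do not give the deleted part of the receptor. Irf7, an interferon-induced factor, read 735, 22, 492 and 5.25 CPM there, which follows the labels.

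The 34 genes took their highest share of UMIs in microglia in every library. In microglia they made up 4.28%, 4.75%, 4.39% and 3.63% of all UMIs, and in monocyte/macrophages 1.72%, 2.10%, 2.41% and 3.49%. Microglia were thus above monocyte/macrophages by 2.49-fold, 2.26-fold, 1.83-fold and 1.04-fold, and in anti-PD1 KO the 2 lineages nearly met. T cells held 0.344% to 0.405% in the 4 libraries, NK cells 0.317% in untreated WT, basophils and mast cells 0.550% and 0.580% in the untreated pair, neutrophils 0.814% and 0.836% in the same pair, and conventional and migratory dendritic cells 0.792% to 1.07% in the 3 libraries with at least 50 of them. Plasmacytoid dendritic cells, measured in untreated WT alone, held 1.51%, close to the macrophages of that library.

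**Figure D1:**
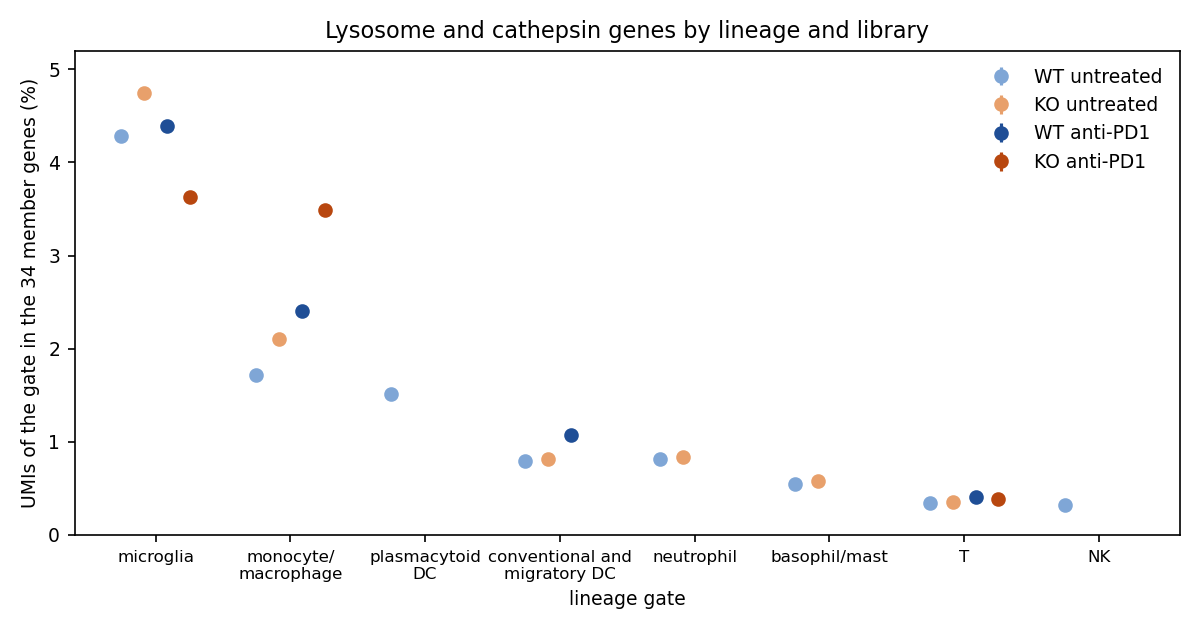
Percent of the UMIs of each lineage gate that fell in the 34 genes (y axis) by lineage (x axis), 1 point per library with at least 50 cells in the gate; 95% exact intervals are smaller than the points. Microglia lie between 3.63% and 4.75%, and monocyte/macrophages between 1.72% in untreated WT and 3.49% in anti-PD1 KO.

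Gene by gene, microglia held the highest CPM of 25, 24, 27 and 23 of the 34 genes, among the 8, 6, 4 and 3 lineages with at least 50 cells in the library. Monocyte/macrophages held the highest level of 4, 4, 7 and 11 genes, and the few others were spread over neutrophils, basophils and mast cells and plasmacytoid dendritic cells. The same count over all genes was not taken, so these counts do not show what is particular to the list. Nor can they be compared between libraries, where the number of lineages differs. Cd63, a tetraspanin of late endosomes and of basophil granules, reached 1618 and 1881 CPM in the basophil and mast cell gates of untreated WT and KO, above the 936 and 1402 CPM of microglia. Plasmacytoid dendritic cells held the highest Ctsh, an aminopeptidase (893 CPM against 736 in microglia), and the highest Npc1, the membrane protein that exports cholesterol from lysosomes (378 against 124). Laptm5, a membrane protein that sends the T cell receptor to lysosomes, was read in T cells at 1024, 1270, 843 and 930 CPM, and Ctsd, the main lysosomal aspartic protease, at 721, 722, 558 and 479 CPM.

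Microglia were compared with monocyte/macrophages over the 4 libraries as replicates, each library giving 1 difference, so that the p-values measure the spread between these 4 libraries. Of the 34 genes, 17 were higher in microglia and 2 lower at an adjusted p under 0.05, and 15 were not called; across all 11756 genes tested, 24.9% were higher and 23.5% lower. The median log2 difference of the 34 was 0.51, against 0.03 over all genes. Ctsd had the largest difference of the 17: 10614, 9838, 10196 and 8496 CPM in microglia against 739, 759, 1965 and 4369 CPM in monocyte/macrophages. No macrophage value reached a microglial one, and the log2 difference was 2.58 (SE 0.50, edgeR quasi-likelihood test with Benjamini-Hochberg adjustment, adjusted p = 0.00376, higher in 4 of 4 libraries). The cysteine protease Ctsl (log2 1.56, SE 0.28), the asparaginyl endopeptidase Lgmn, which processes cathepsins (1.23, SE 0.27), the glycogen-degrading Gaa (1.38, SE 0.17), the alpha-mannosidase Man2b1 (1.21, SE 0.21), the beta-galactosidase Glb1 (1.20, SE 0.26) and the progranulin gene Grn (1.15, SE 0.24) were also higher in microglia of all 4 libraries, with edgeR adjusted p-values from 0.000396 to 0.00688. Smaller differences passed for Ctsb, Scarb2, Tpp1, Hexa, Ctsa, Mcoln1, Gusb, Ctsz, Laptm5 and Lipa, from 0.48 to 1.01 on the log2 scale.

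Genes lower in microglia were Atp6v0d2, a pump subunit best known from osteoclasts (log2 -3.52, SE 0.40, edgeR adjusted p = 0.000272), and Ctsk, the collagen-degrading cathepsin of the same cells (-3.37, SE 0.42, adjusted p = 0.000415). Microglia held 1, 1, 38 and 97 UMIs of Atp6v0d2 and 2, 0, 9 and 13 of Ctsk, while monocyte/macrophages held 22, 178, 1032 and 4526 of the first and 79, 85, 228 and 448 of the second. Among the genes not called, Psap, the precursor of the saposins that present sphingolipids to their hydrolases, lay at log2 -0.30 (SE 0.30, adjusted p = 0.433) and was higher in microglia of 2 libraries; Cd63 lay at 0.97 (SE 0.39, adjusted p = 0.0707), higher in microglia of 3 libraries. The call count changed with the libraries used. It fell from 17 to 11, 10 and 11 without untreated WT, untreated KO and anti-PD1 WT, and was 19 without anti-PD1 KO. Such fits have fewer replicates, so a fall does not show on which libraries the differences rest. Ctsd, Ctsl, Lgmn, Gaa, Man2b1, Grn, Scarb2 and Ctsk were called in all 11 fits run, the reported one and 10 alternatives, which include leaving out each library.

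The monocyte/macrophage gate was itself split by the summed UMIs of the complement genes C1qa, C1qb and C1qc. C1q-high cells (at least 20 of these UMIs) made up 29.9%, 48.7%, 73.6% and 66.3% of the gate; they are a range and not a cell type, and 229, 214, 634 and 1451 cells lay near the limit, at 10 to 39. They also held more UMIs per cell in every library, with medians of 9932, 12570, 10072 and 7175. The medians of C1q-low cells were 6767, 8928, 6680 and 2545 UMIs. The part of this depth in the differences below was not tested. Of the 34 genes, 22 were higher in C1q-high cells, 0 lower and 12 not called, against 7.55% higher and 9.29% lower among 10929 genes tested by edgeR; at an unadjusted p under 0.05 the counts were 24 and 0. The median log2 difference of the 34 was 0.54, against -0.00 over all genes. Cd63 stood at 423, 641, 906 and 1952 CPM in C1q-high cells and at 82.8, 184, 135 and 885 CPM in C1q-low cells. It was higher in the C1q-high cells of all 4 libraries, by 2.03 on the log2 scale (SE 0.22, edgeR adjusted p = 0.000836). Ctsd followed with 1161, 961, 2260 and 4939 CPM against 461, 462, 646 and 1343 (log2 1.54, SE 0.17, adjusted p = 0.000836).

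Atp6v0d2 had the largest fold, with 3.83, 24.8, 21.7 and 185 CPM in C1q-high cells and 0, 2.63, 0.663 and 81.8 CPM in C1q-low cells (log2 2.54, SE 0.49, edgeR adjusted p = 0.0097). The beta-hexosaminidase subunit Hexa (0.96, SE 0.11), the acid lipase Lipa (0.88, SE 0.09), the tripeptidyl peptidase Tpp1 (0.79, SE 0.09), Glb1 (0.82, SE 0.11) and Grn (0.81, SE 0.11) were higher in C1q-high cells of all 4 libraries. Lgmn was called at 0.70 (SE 0.17) but was higher in 3 of the 4 libraries, since C1q-high and C1q-low cells of anti-PD1 KO held 2014 and 2137 CPM. Those not called included Laptm5 (log2 -0.08, SE 0.10), Lamp2 (-0.05, SE 0.13), Tfeb (0.15, SE 0.12) and Atp6v1a (0.05, SE 0.13). Without anti-PD1 WT, 14 of the 34 were called higher. Because the C1q-high share differed between libraries, the genotype contrasts below are also given within the C1q-high and C1q-low cells.

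**Figure D2:**
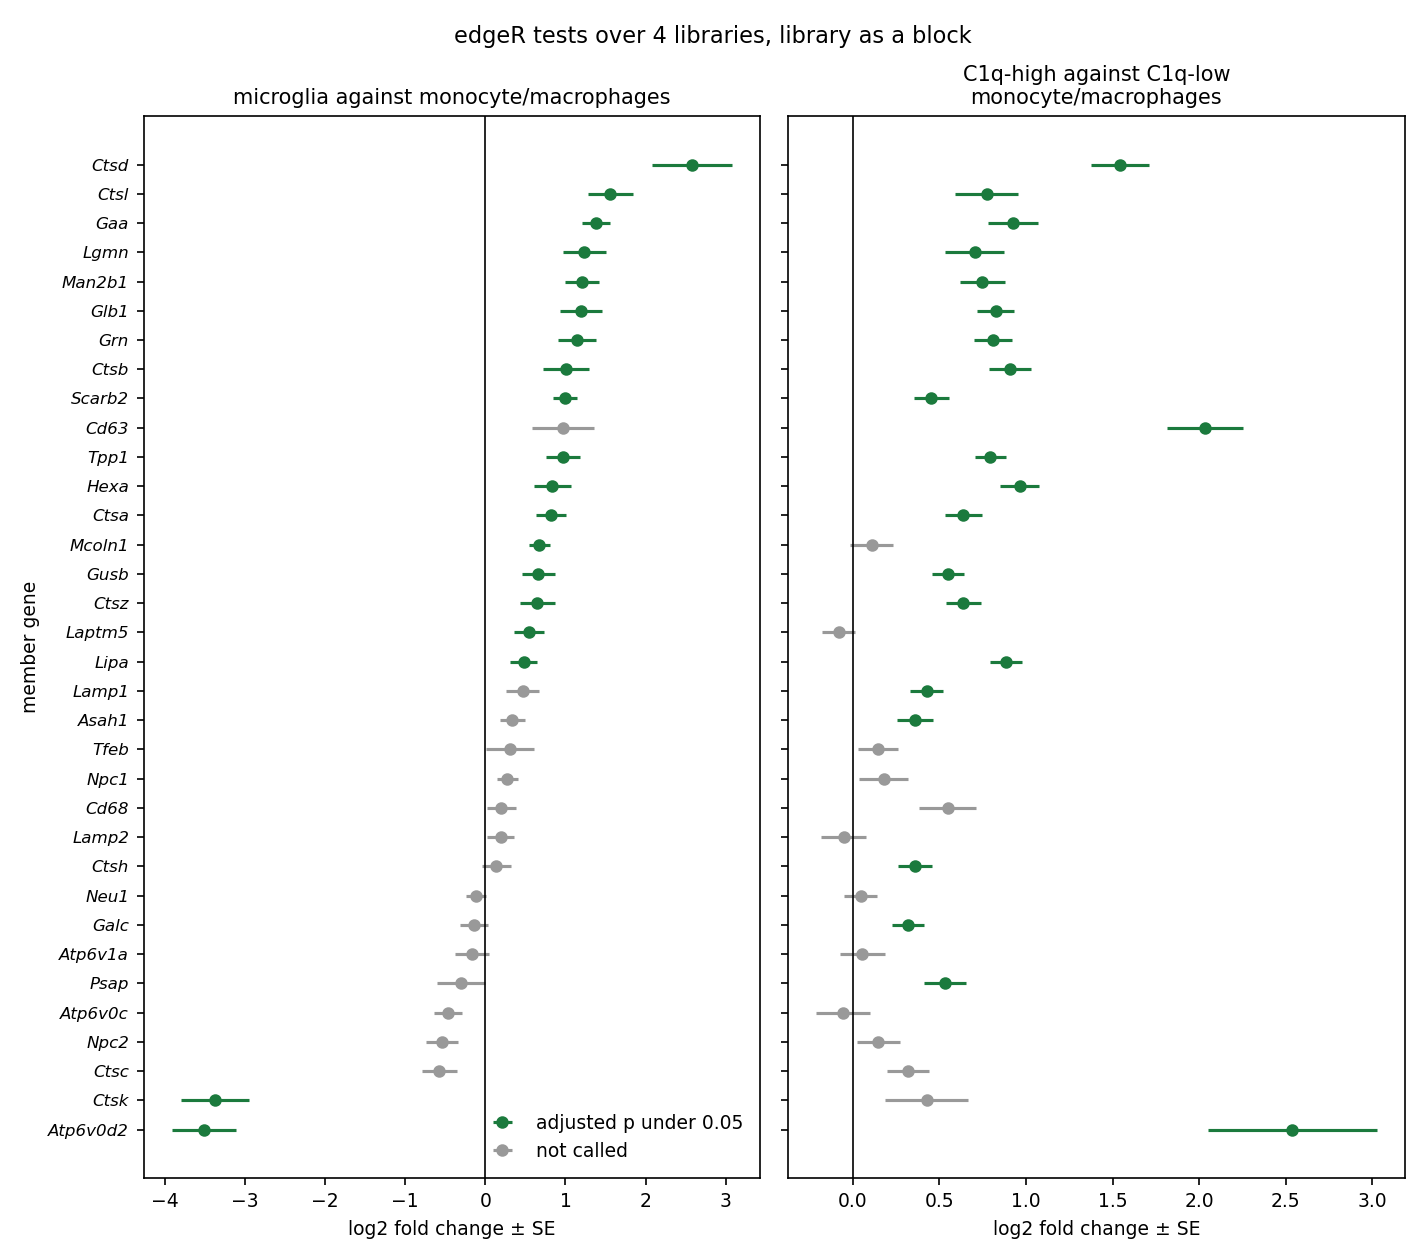
Log2 fold change ± SE (x axis) of each gene (y axis) in the edgeR tests over 4 libraries, left for microglia against monocyte/macrophages and right for C1q-high against C1q-low monocyte/macrophages, green where the adjusted p is under 0.05. On the left 17 genes are called to the right of 0 and Atp6v0d2 and Ctsk to the left; on the right 22 are called, all above 0.

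In monocyte/macrophages the 34 genes stood higher in KO than in WT in both pairs. The median log2 ratio KO/WT was 0.30 without treatment and 0.58 under anti-PD1, against 0.09 over the 10438 and 0.14 over the 11852 genes that had 50 or more UMIs in the 2 libraries compared. In the untreated pair 10 genes were at least 1.5-fold higher in KO and 2 lower, where 15.3% of all genes were higher and 10.2% lower by that rule. In the anti-PD1 pair 17 were higher and 2 lower, against 23.9% and 15.9% of all genes. Past 2-fold were 3 higher and 0 lower without treatment (4.68% and 4.4% of all genes) and 11 higher and 0 lower under anti-PD1 (10.8% and 7.64%). KO stood above WT for 27 of the 34 without treatment and for 24 under anti-PD1. By CPM the medians over all genes also lay above 0, and the share of all genes above 0 was not counted. Scaling by TMM factors in place of the gate total lowered the ratios of this gate and moved the all-gene medians to -0.05 and 0.01; the medians of the 34 were then 0.17 and 0.45, and the counts 6 higher and 3 lower without treatment (10.4% and 14.3% of all genes) and 14 and 2 under anti-PD1 (18.4% and 19.8%). Ctsb, Ctsd, Lamp2 and Scarb2 without treatment and Mcoln1 under anti-PD1 had small ratios above 0 by CPM that lay below 0 under TMM factors. That left 23 of the 34 genes above 0 in each pair.

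Past 1.5-fold in both pairs were 9 genes: Ctsl, Lgmn, Tpp1, Hexa, Gusb, Glb1, Psap, Cd63 and Atp6v0d2, where 6.68% of 10259 genes met that rule. Under TMM factors or DESeq2 size factors 5 of them remained, Lgmn, Tpp1, Psap, Cd63 and Atp6v0d2. Other settings also shortened the list. A stricter cell filter (at least 500 genes, at most 5% mitochondrial UMIs) left 6 of the 9, without Hexa, Gusb and Glb1. Cells with no marker UMI of the other gate left 7, without Hexa and Gusb. Cells thinned to 1000 UMIs left 7, without Glb1 and Atp6v0d2. Lgmn, Tpp1, Psap and Cd63 passed in each of these settings. Lower in both pairs was Atp6v0c, against 4.85% of all genes, and under TMM factors Cd68 as well.

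**Figure D3:**
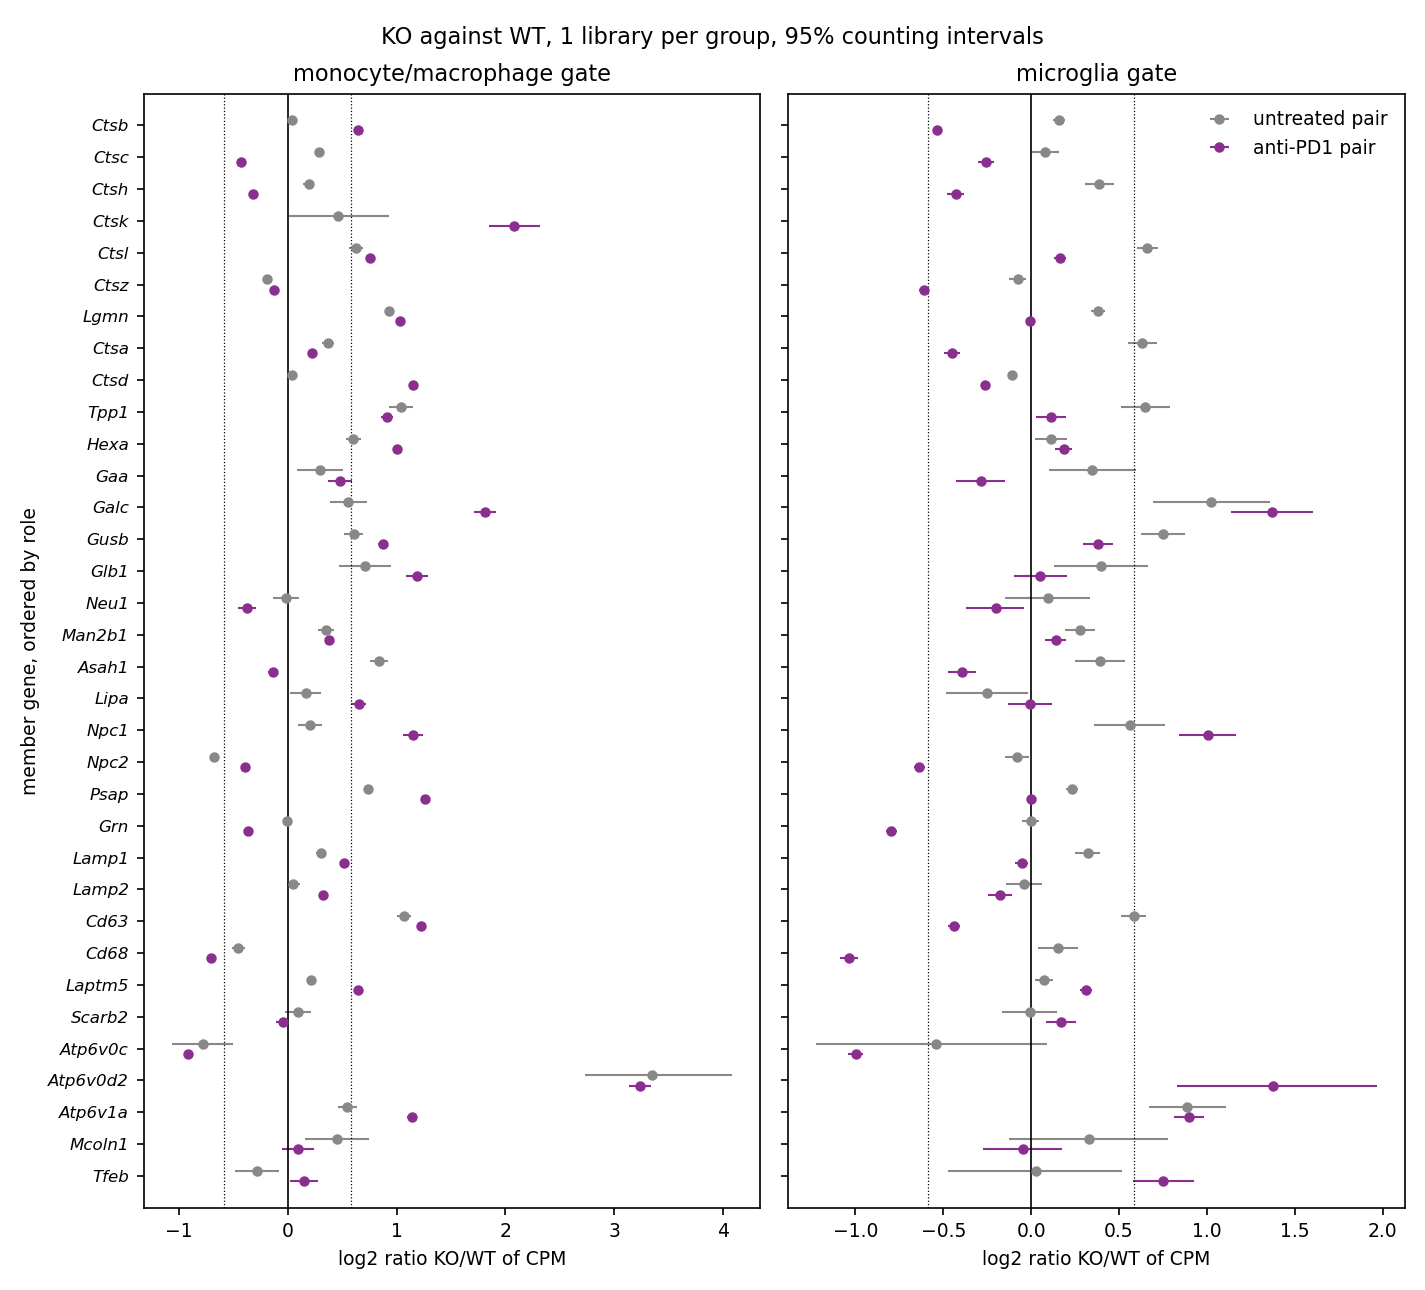
Log2 ratio KO/WT of CPM (x axis) for each gene (y axis, by role) in monocyte/macrophages (left) and microglia (right), grey for the untreated and purple for the anti-PD1 pair, with 95% exact counting intervals and dotted lines at 1.5-fold; genes under 50 UMIs in a pair are not drawn. On the left most points lie right of 0 in both pairs, with Atp6v0d2 at 3.35 and 3.24, and on the right the purple points lie on both sides of 0.

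Of the 7 cysteine proteases, 2 were at least 1.5-fold higher in KO without treatment and 4 under anti-PD1, and 0 lower by that fold in either pair. Lgmn stood at 835, 1590, 998 and 2034 CPM in monocyte/macrophages, so that both KO libraries were above both WT libraries. KO was 1.90-fold above WT without treatment (95% interval 1.86 to 1.95) and 2.04-fold under anti-PD1 (2.01 to 2.06). Ctsl stood at 259, 400, 509 and 859 CPM, 1.54-fold and 1.69-fold higher in KO, but its untreated KO value lay below the anti-PD1 WT value. Ctsb, an endo- and exopeptidase, stood at 1887, 1933, 2390 and 3728 CPM and differed by log2 0.03 (0.01 to 0.06) without treatment and 0.64 (0.63 to 0.65) under anti-PD1. Ctsc, which activates granule serine proteases, had opposite signs in the 2 pairs, with 871 and 1060 CPM in WT and KO without treatment and 1515 and 1126 under anti-PD1 (log2 0.28 and -0.43). Ctsh did likewise (0.19 and -0.32), and Ctsz was lower in KO in both pairs (-0.19 and -0.13). Ctsk was read at 5.46, 7.54, 3.95 and 16.7 CPM, and its anti-PD1 ratio was 4.22-fold (3.59 to 4.98).

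The aspartic protease Ctsd differed by genotype in 1 pair. It stood at 739, 759, 1965 and 4369 CPM in monocyte/macrophages, nearly level without treatment (log2 0.04, -0.00 to 0.08) and 2.22-fold higher in KO under anti-PD1 (2.20 to 2.24). Tpp1 was higher in KO in both pairs, at 75.3, 155, 97.1 and 183 CPM, which gave 2.06-fold and 1.89-fold. The serine carboxypeptidase Ctsa, which also stabilizes beta-galactosidase and the sialidase, stood at 349, 450, 438 and 510 CPM.

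In the whole gate, glycosidases were the group with the highest median among groups of 6 or more genes. It was 0.56 without treatment, with 3 of 7 genes past 1.5-fold, and 0.87 under anti-PD1, with 4 of 7. None of the 7 was past 1.5-fold lower. In C1q-high cells without treatment the median was 0.241, with 0 of 7 past 1.5-fold. There it lay below the medians of lipid handling (0.246) and membrane proteins (0.253). In C1q-low cells without treatment it was 0.57, with 3 of 7. Under anti-PD1 it was 0.87 in C1q-high and 0.84 in C1q-low cells, with 4 of 7 in each. Hexa stood at 214, 325, 302 and 606 CPM, Gusb (beta-glucuronidase) at 128, 194, 127 and 233, and Glb1 at 17.8, 29.1, 26.3 and 59.8. In each of these 3 genes both KO libraries were above both WT libraries by CPM; under TMM factors untreated KO lay below anti-PD1 WT for Hexa and Glb1, and the order held for Gusb. Galc, the galactosylceramidase that breaks down myelin lipid, stood at 36.8, 54.1, 22.1 and 77.6 CPM, 1.47-fold higher in KO without treatment (1.31 to 1.65) and 3.51-fold under anti-PD1 (3.27 to 3.77). Its WT value was lower under anti-PD1 and its KO value higher. Gaa (log2 0.30 and 0.48) and Man2b1 (0.35 and 0.38) differed less, and the sialidase Neu1 lay at -0.02 and -0.37.

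Of the genes of lipid handling, Psap was higher in KO in both pairs. It stood at 3576, 5974, 3825 and 9161 CPM in monocyte/macrophages. Both KO libraries lay above both WT libraries, and KO was 1.67-fold (1.65 to 1.69) and 2.39-fold (2.38 to 2.41) above WT. Npc1 differed mainly under anti-PD1, with 96.4, 111, 34.9 and 77.4 CPM (log2 0.20 and 1.15). Its soluble partner Npc2, which hands cholesterol to it, was lower in KO: 1971, 1229, 2526 and 1925 CPM, with log2 ratios of -0.68 and -0.39. The acid ceramidase Asah1 was 1.78-fold higher in KO without treatment (138 against 246 CPM) and slightly lower under anti-PD1 (221 against 201). Lipa lay at 0.16 and 0.65, and Grn at -0.00 and -0.37.

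Among membrane proteins, Cd63 and Cd68 parted. Cd63 stood at 218, 456, 765 and 1783 CPM in monocyte/macrophages, 2.09-fold (2.0 to 2.19) and 2.33-fold (2.30 to 2.36) higher in KO, with untreated KO below anti-PD1 WT. Cd68, a heavily glycosylated marker of macrophage endosomes, stood at 405, 295, 657 and 402 CPM, lower in KO in both pairs (log2 -0.46 and -0.71), with anti-PD1 KO and untreated WT nearly equal. Within each genotype both genes were higher in the anti-PD1 library. Lamp1 was modestly higher in KO (573, 708, 774 and 1106 CPM, log2 0.31 and 0.51), Lamp2 and Scarb2 lay between -0.05 and 0.33, and Laptm5 at 0.21 and 0.65.

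The proton pump held the largest ratio of the list in both pairs. Atp6v0d2 was read at 1.52, 15.8, 17.9 and 168 CPM in monocyte/macrophages, from 22, 178, 1032 and 4526 UMIs. KO was 10.2-fold above WT without treatment (6.65 to 17) and 9.43-fold above under anti-PD1 (8.81 to 10.1). The cytosolic catalytic subunit Atp6v1a stood at 140, 205, 120 and 265 CPM (log2 0.55 and 1.14). The membrane ring subunit Atp6v0c was lower in KO in both pairs, at 23.4, 13.6, 1723 and 914 CPM, but its level differed between the untreated and the anti-PD1 libraries in every gate, T cells included (3.0, 3.08, 308 and 153 CPM). That step coincides with treatment, day, the software release and the feature list, which cannot be told apart. Atp6v0c is counted in the list's values; without it the list's share of macrophage UMIs was 1.71%, 2.10%, 2.23% and 3.40%. The channel Mcoln1 (0.45 and 0.09) and Tfeb (-0.28 and 0.15; 35.0, 28.8, 25.6 and 28.4 CPM) stayed under 1.5-fold in both pairs.

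The ratios were also taken within the C1q ranges, which are not alike between libraries since the limit is in UMIs per cell. C1q-low cells held 334, 428, 551 and 2825 CPM of the 3 C1q genes, with medians of 6767, 8928, 6680 and 2545 UMIs per cell, and C1q-high cells 10499, 6648, 17242 and 10322 CPM. The part of this in the ratios was not tested. In C1q-high cells the median log2 ratio KO/WT was 0.24 without treatment and 0.56 under anti-PD1 (0.05 and 0.11 over all genes), with 7 and 17 genes past 1.5-fold higher, against 12.8% and 21.6% of all genes, and 2 lower in each pair, against 8.85% and 15.4%. In C1q-low cells it was 0.22 and 0.49 (0.13 and 0.18 over all genes), with 8 and 16 higher, against 18.1% and 29.3%, and 2 and 5 lower, against 10.3% and 18.7%. Past 1.5-fold higher in both pairs were 6 genes in C1q-high cells (5.49% of all genes) and 5 in C1q-low cells (9.4%), with 2 lower in each range (4.37% and 5.22%). Cd63 and Tpp1 were among them in both ranges; Psap passed in both pairs among C1q-high cells (log2 0.80 and 1.21) and lay at 0.41 and 1.52 among C1q-low cells. Ctsd without treatment lay at -0.27 in C1q-high and 0.00 in C1q-low cells, against 1.13 and 1.06 under anti-PD1. The gates also differed in marker content: Mrc1, the mannose receptor of a subset of macrophages and 1 of the 8 gate markers, stood at 72.6, 1197, 62.0 and 527 CPM in monocyte/macrophages. The 8 markers together held 9217, 8931, 14983 and 13634 CPM, all of them detected in every library. The part of this makeup in the ratios was not tested.

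Cell by cell, the whole distribution differed between libraries. The median monocyte/macrophage gave 1.44%, 1.90%, 1.94% and 3.04% of its UMIs to the 34 genes, and the 90th percentile lay at 2.59%, 3.36%, 3.43% and 5.89%. In anti-PD1 KO the quartiles were 1.96% and 4.48%, and the median microglia gave 3.68%, 4.22%, 3.88% and 3.28%. The upper quartile of macrophages in anti-PD1 KO thus lay above the median microglia of all 4 libraries.

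**Figure D4:**
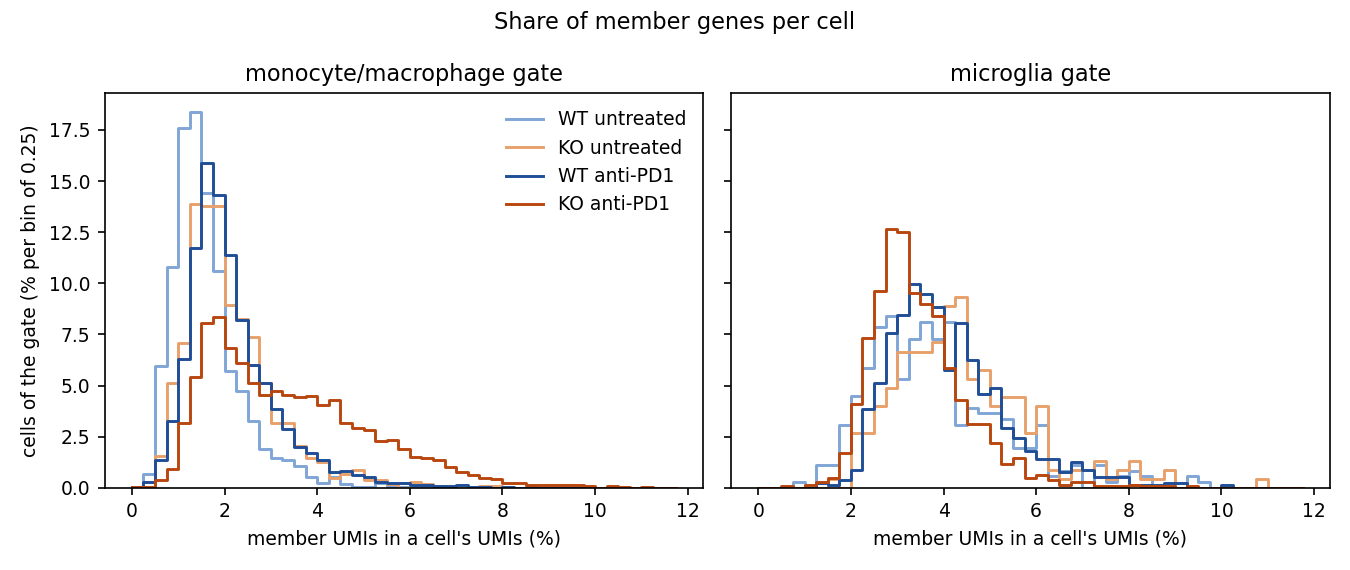
Distribution over cells of the percent of a cell's UMIs in the 34 genes (x axis, bins of 0.25) as percent of the cells of the gate (y axis), for monocyte/macrophages (left) and microglia (right), 1 line per library. Macrophages of anti-PD1 KO spread to the right, with a median of 3.04% against 1.44% to 1.94% in the other libraries, while the 4 microglia curves overlap.

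Microglia showed another pattern. Without treatment the median log2 ratio KO/WT was 0.26, against 0.01 over 8361 genes; 6 of 32 measured genes were at least 1.5-fold higher in KO and 0 lower, against 7.8% and 7.76% of all genes. Under anti-PD1 the median was -0.05, against 0.27 over 10266 genes, with 5 of 33 genes higher and 5 lower, against 31.4% and 12.7%. TMM factors moved the all-gene median of that pair to 0.01, and the 33 genes then had a median of -0.31 with 4 higher and 10 lower, against 17.1% and 21.4% of all genes; Ctsl, Tpp1, Hexa, Glb1, Man2b1 and Scarb2, above 0 by CPM, then lay below it. Past 2-fold were 1 higher and 0 lower without treatment (1.76% and 2.68% of all genes) and 3 higher and 1 lower under anti-PD1 (10.7% and 4.82%). Ctsk was under the minimum in both pairs and Atp6v0d2 in the untreated pair.

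Past 1.5-fold higher in both pairs of microglia were Galc and Atp6v1a, where 3.87% of 8288 genes met that rule; none was lower in both, where 3.0% of all genes were. Galc stood at 40.1, 81.7, 21.2 and 54.9 CPM (2.03-fold and 2.58-fold), and Atp6v1a at 94.1, 174, 171 and 319 CPM (1.85-fold and 1.86-fold). Several proteases of microglia were lower in KO under anti-PD1. Ctsb stood at 5232, 5838, 6264 and 4320 CPM (log2 0.16 and -0.54), Ctsz at 2581, 2450, 2658 and 1745 (-0.08 and -0.61), and Ctsd, given above, at -0.11 and -0.26. Grn (2567, 2563, 2139 and 1233 CPM, log2 -0.00 and -0.79) and Cd68 (438, 487, 920 and 449 CPM, log2 0.15 and -1.04) lay further below WT in the anti-PD1 pair.

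Lgmn and Psap, which stood higher in KO macrophages in both pairs, were level in microglia under anti-PD1: Lgmn held 3385, 4404, 2955 and 2941 CPM and Psap 4937, 5808, 4216 and 4212. Npc1 was higher in KO microglia (124, 182, 46.8 and 94.0 CPM, log2 0.56 and 1.00). Tfeb held 26.0, 26.5, 44.3 and 74.7 CPM and differed by 0.75 (0.58 to 0.93) under anti-PD1. The 6 macrophage genes low in microglia summed in this gate to 59.9, 118, 71.0 and 103 CPM, with all 6 detected in each library. They did not move together with genotype. Mrc1 alone held 4.39, 46.2, 3.97 and 37.6 CPM, and Tgfbi 35.1, 59.9, 25.9 and 30.6. Vcan was slightly higher in KO in both pairs. Ms4a7 (10.0, 3.42, 35.1 and 30.0 CPM), F10 and Ccr2 were lower in KO in both pairs. The part of these markers in the microglial ratios was not tested.

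T cells hold few UMIs of these genes and were set beside the phagocytes. Their median log2 ratio KO/WT was -0.04 without treatment, with 0 of 32 genes past 1.5-fold in either direction, against 4.61% higher and 3.73% lower of all genes. Under anti-PD1 it was 0.02, with 6 higher and 5 lower of 31, against 23.2% and 16.3%. None was past 1.5-fold in both pairs, where 0.968% of all genes were higher and 1.49% lower. In that pair some ratios had the sign seen in macrophages: Lgmn at 1.11 (from 35.1 and 76.0 CPM), Ctsl at 1.03, Galc at 1.01 and Cd63 at 0.93. The 4 genes rest on 37 to 181 UMIs per library in that pair, at 14.1 to 76.0 CPM. Whether RNA from other cells gave part of those UMIs was not tested.

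A comparison inside each library does not rest on the scaling between libraries. The log2 CPM of monocyte/macrophages minus that of microglia of the same library had a median of -0.98, -0.94, -0.73 and -0.21 over 33 of the genes (all but Atp6v0d2), with 5, 6, 6 and 10 genes higher in macrophages; over 9460 genes the medians were -0.18, -0.08, -0.06 and -0.17. KO minus WT in this difference had a median of -0.00 without treatment, with 16 of 33 genes above 0, and of 0.48 under anti-PD1, with 29 of 33 above 0. Over all genes the median was 0.10 and -0.10, and 58.2% and 41.7% of them lay above 0. For the counts within each library, the share over all genes was not taken. So in the anti-PD1 pair the list lay higher in KO macrophages, relative to the microglia of the same library. In the untreated pair, where both lineages were higher in KO, it lay at 0, under the all-gene median of 0.10. Both KO libraries lay above both WT libraries for 4 of 33 genes, and 18.0% of all genes did so; 0 lay below, against 18.4%. These were Lgmn (-2.02, -1.47, -1.57 and -0.53), Psap (-0.47, 0.04, -0.14 and 1.12), Lipa (-1.07, -0.66, -0.76 and -0.11) and Ctsk, which rests on the few microglial UMIs given above. Ctsd ran from -3.84 and -3.70 to -2.38 and -0.96, and Cd63 from -2.10 and -1.62 to -1.20 and 0.46.

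**Figure D5:**
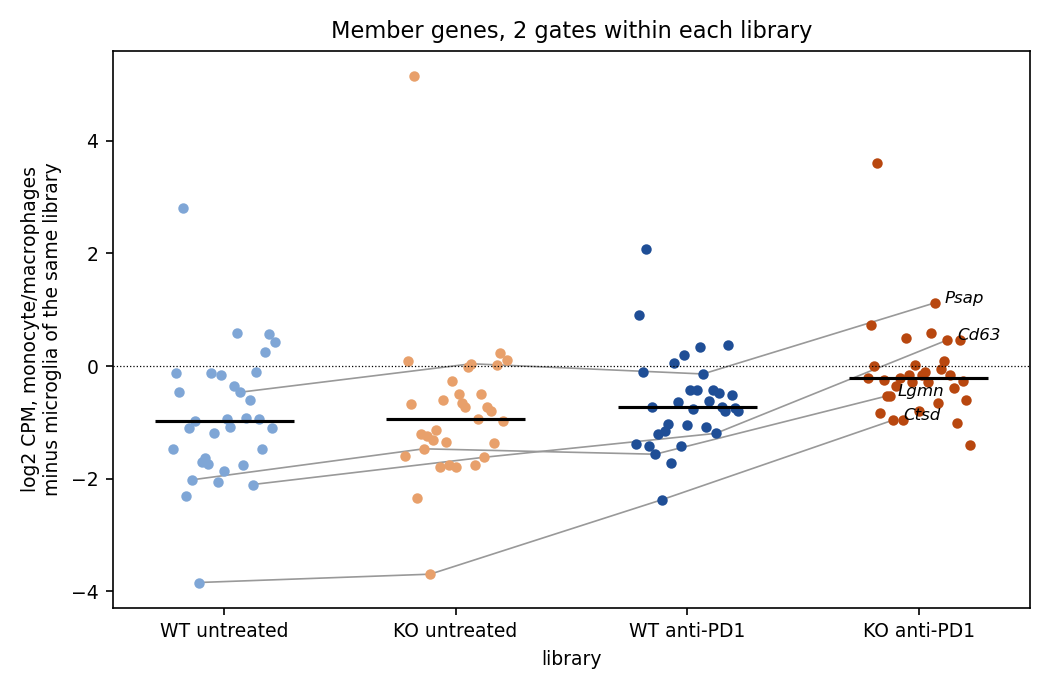
Log2 CPM in monocyte/macrophages minus that in microglia of the same library (y axis) for 33 of the genes, 1 point per gene, with the library on the x axis; bars are medians and lines follow Ctsd, Psap, Cd63 and Lgmn. The bars lie at -0.98, -0.94, -0.73 and -0.21; the highest point of each library is Ctsk, which had 0 to 13 UMIs in microglia, so its height depends on the pseudocount.

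Anti-PD1 and untreated libraries were set side by side within a genotype. Day, sort and software release changed with the treatment and cannot be told apart from it. The ratio of T cell receptor beta variable to constant UMIs also differed, from 0.00973 to 3.24 in WT and from 0.0103 to 0.0737 in KO. In monocyte/macrophages the median log2 ratio of anti-PD1 to untreated was 0.36 in WT and 0.36 in KO, against -0.17 and -0.24 over all genes. In WT 9 genes were past 1.5-fold higher and 3 lower, against 18.4% and 29.8% of all genes, and in KO 13 and 1, against 18.5% and 30.9%. Atp6v0c, at 6.20 and 6.07, is counted among the higher genes; without it they numbered 8 in WT and 12 in KO, with medians of 0.36 and 0.36. Past 2-fold were 4 and 1 in WT (10.2% and 16.3% of all genes) and 7 and 0 in KO (11.5% and 14.9%). TMM factors gave 18 and 1 past 1.5-fold in WT, where 26.5% and 21.0% of all genes passed, and 18 and 0 in KO, where 24.9% and 20.0% did. Ctsd (log2 1.41 in WT and 2.53 in KO), Cd63 (1.81 and 1.97), Ctsl (0.97 and 1.10) and Atp6v0d2 (3.52 and 3.41) were higher in both genotypes, and the share of C1q-high cells, which hold more of each, was higher too. The part of that share in these ratios was not tested. Within C1q-high cells all 4 were higher under anti-PD1 in both genotypes. Ctsd there went from 1161 to 2260 CPM in WT and from 961 to 4939 in KO. In C1q-low cells of KO, Ctsl was level at 374 and 371 CPM. In the C1q-high cells alone the medians were 0.069 in WT and 0.27 in KO, against -0.22 and -0.26 over all genes. In microglia the median was -0.08 in WT and -0.46 in KO (-0.30 and -0.17 over all genes), with 6 higher and 6 lower of 32 in WT, against 13.6% and 36.2%, and 4 higher and 10 lower of 33 in KO, against 17.4% and 24.8%. Past 2-fold were 2 and 1 in WT (6.57% and 19.0%) and 3 and 1 in KO (10.0% and 9.65%). TMM factors gave 11 and 1 past 1.5-fold in WT (28.2% and 18.3% of all genes) and 4 and 5 in KO (22.7% and 16.9%).

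Other genes of the lysosome were read from a list of 114, all found in the files. In monocyte/macrophages 25 of 103 measured were past 1.5-fold higher in KO and 2 lower without treatment (median 0.20), and 28 of 104 and 4 under anti-PD1 (median 0.21). The shares over all genes of this gate were 15.3% and 10.2% without treatment and 23.9% and 15.9% under anti-PD1, so the higher count under anti-PD1 is near the background. Other glycosidases, sulfatases and nucleases gave 10 of 25 higher without treatment (median 0.51) and 6 higher and 1 lower under anti-PD1 (median 0.04). Manba, the beta-mannosidase, stood at 18.5, 42.2, 18.5 and 46.2 CPM (log2 1.19 and 1.32), so both KO libraries were above both WT libraries. Hgsnat, which acetylates heparan sulfate for its breakdown, lay at 1.17 and 1.00. Atp6v0a1, another pump subunit, stood at 36.4, 85.4, 19.8 and 58.3 CPM (1.23 and 1.56). Sort1, the sorting receptor for prosaposin and progranulin, lay at 0.95 and 1.46. Ctss, a cathepsin of antigen presentation, lay at -0.35 and -0.11, the mannose 6-phosphate receptor gene M6pr at 0.14 and -0.02, and Tfe3, a relative of Tfeb, at 0.04 and -0.16. Mitf, another relative, stood at 38.6, 37.1, 112 and 228 CPM (-0.06 and 1.02).

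In microglia 11 of 97 of the wider list were higher and 2 lower without treatment, and 21 of 104 and 15 under anti-PD1. Over all genes of the gate 7.8% were higher and 7.76% lower without treatment and 31.4% and 12.7% under anti-PD1, where the higher count thus lay below the background. Cst7, an inhibitor of cysteine cathepsins, stood at 448, 212, 1120 and 319 CPM and was lower in KO in both pairs (-1.08 and -1.81). Atp6v0a1 was higher in both (0.78 and 0.91). Microglia were higher than monocyte/macrophages, by the edgeR test over 4 libraries, in 40 of 105 of these genes and lower in 17, against 24.9% and 23.5% of all genes. They were higher in Cst3, the secreted inhibitor cystatin C (log2 2.87, SE 0.25), and lower in the cytosolic inhibitor Cstb (-1.96, SE 0.19). Of the wider list, 23 of 86 genes with a promoter window held CACGTG (26.7%).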

How the data were processed

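The deposited files hold raw UMI counts per gene and cell barcode; per the file headers Cell Ranger 3.1.0 made the untreated and 7.2.0 the anti-PD1 matrices, and the submitters' processing notes name mm10 and GRCm38. The members and lists were chosen with earlier results of these data known, and the gate minimums after seeing the marker sums. Cells with at least 200 genes and at most 10% mitochondrial UMIs were kept. Scrublet (scanpy 1.11.5, Python 3.11.15) marked 0 to 2 doublets by its automatic threshold, so the top-scored cells at 0.8% per 1000 barcodes were removed instead (83 to 722 per library). UMIs were summed per library and gate. Ratios are of CPM with 0.5 counts added, for genes with 50 or more UMIs over both libraries, with exact 95% intervals. Lineages were tested with edgeR 4.0.16 (R 4.3.3), a quasi-likelihood fit with TMM factors, the library as a block and Benjamini-Hochberg adjustment over all genes; the 4 libraries were the replicates. Tested on simulated data for microglia against monocyte/macrophages, it recovered 99% of 2-fold and 66% of 1.5-fold changes, and for the C1q ranges 99% and 60%. The simulation gave all genes the same fixed spread and changed no other gene between gates, so these rates do not carry over to the real libraries. There Cd63, 1.96-fold higher in microglia, was not called. Genes outside the 34 were named by rank of the smaller ratio of the 2 pairs within each list, beside 7 chosen whatever their values, of which 1 is not reported here. Irf7 was chosen after its values were seen. DESeq2 1.42.0 gave alternatives.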

Additional observations from a re-analysis of the deposited data

How the results depend on the processing

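No paired analysis was possible for genotype or treatment because each group has 1 library and the labels carry no shared replicate numbers. The lineage tests pair the 2 gates of a library; with no library block edgeR called 7 genes higher and 1 lower in microglia, and 0 in the C1q ranges, where 11 had an unadjusted p under 0.05 and DESeq2 with the block called 22. Leaving out 1 library gave 10 to 19 genes higher and 2 to 3 lower in microglia, and 14 to 17 higher in C1q-high cells. Called lower in microglia were 5 with the DESeq2 Wald test, with no low-count filter and with doubled gate minimums.

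For macrophage KO/WT without treatment, TMM factors gave a median of 0.17 and 6 genes higher, DESeq2 size factors 6, and a 2-fold threshold 3 higher and 0 lower; without Atp6v0c 1 was lower. Under anti-PD1 the median was 0.52 with doubled gate minimums, 0.65 with cells thinned to 1000 UMIs, 0.45 with TMM and 0.49 with DESeq2 factors, 0.69 with cells of equal weight, 0.49 in C1q-low cells and 0.64 without Atp6v0c. Past 2-fold were 11 higher and 0 lower; 5 were lower by 1.5-fold in C1q-low cells and 1 without Atp6v0c. Past 1.5-fold in both pairs were 5 higher with either factor set and 2 lower with TMM.

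For microglia KO/WT, 1 gene was past 2-fold higher without treatment, and 1 lower by 1.5-fold with doublets kept, doubled gate minimums, equal weights or no minimum of UMIs. Under anti-PD1 the median was -0.31 with TMM and -0.24 with DESeq2 factors, with 10 and 9 lower; past 2-fold were 3 higher and 1 lower. Thinned cells left 1 gene higher in both pairs, and doublets kept or doubled minimums 1 lower in both.

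For anti-PD1 against untreated in WT macrophages the median was 0.61 with TMM, 0.56 with DESeq2 factors, 0.069 in C1q-high and 0.17 in C1q-low cells, with 18, 15 and, past 2-fold, 4 higher; 5 were lower with thinned cells and in C1q-low cells, and 1 with either factor set and past 2-fold. In KO macrophages it was 0.31 with doubled minimums and thinned cells, 0.62 with TMM, 0.60 with DESeq2 factors and 0.27 in either C1q range, with 7 higher past 2-fold; 2 were lower with thinned cells and in C1q-low cells, and 0 with either factor set and past 2-fold. In WT microglia it was 0.060 with the stricter cell filter, 0.045 with thinned cells, 0.36 with TMM and 0.27 with DESeq2 factors, so its sign depends on the setting; 11 were higher with TMM and 2 past 2-fold, and 1 lower with either factor set and past 2-fold. In KO microglia it was -0.54 with doubled minimums, -0.29 with TMM and -0.30 with DESeq2 factors, with 5 lower with either factor set and 1 past 2-fold.

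With doubled minimums the share of UMIs in the 34 genes was 4.31%, 4.30% and 3.50% in microglia of untreated WT, anti-PD1 WT and anti-PD1 KO. In the order of the 4 libraries it was 3.92%, 4.45%, 4.11% and 3.47% with equal weights; the stricter filter gave 3.97% and 4.34% in untreated WT and KO. In macrophages it was 1.84%, 2.17%, 2.51% and 3.51% with doubled minimums and 1.62%, 2.12%, 2.18% and 3.41% with equal weights; the stricter filter gave 1.97% in untreated KO and 3.48% in anti-PD1 KO. The cause of these shifts was not tested. Without Atp6v0c, and counting genes past 1.5-fold in both pairs, were chosen after seeing the data. Atp6v0d2 and Ctsk in microglia rest on 0 to 97 UMIs per library, which limits their ratios there.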
